A study of Mus musculus with 135 samples.

Results

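Iron storage and transport were followed in 10 genes, chosen by symbol, of the 55416 genes listed in each of 2 tables of read counts. The ferritin subunits Fth1 and Ftl1 store iron, Ncoa4 carries ferritin to its breakdown, Tfrc is the transferrin receptor and Trf is transferrin itself. Slc11a2 (DMT1) and Slc40a1 (ferroportin) move ferrous iron into the cytosol and out of the cell, Cp (ceruloplasmin) is a copper enzyme that oxidises iron as it leaves, and Aco1 and Ireb2 encode the iron regulatory proteins. All 10 passed the filter on low counts in every comparison, with at least 135 reads for Slc40a1 in each library and 21608 or more for Fth1.

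Messenger RNA was sequenced in bulk from pieces of cortex and of hippocampus, both taken from adult male Townes mice, in which human globin genes stand in for the mouse ones. SS mice carry the sickle form and AA mice the form of healthy adults. Repeated social defeat (RSD) is a stress in which a mouse meets an aggressive mouse again and again, and minocycline is a tetracycline antibiotic known to dampen microglial activation. It was given from the day before RSD and throughout it. The study asked how stress and this drug act on the brain of sickle mice. Of the cortex libraries used, 12 were from AA and 8 from SS mice left alone, 2 from AA + RSD and 6 from SS + RSD mice, 1 from an AA + minocycline and 4 from SS + minocycline mice, and 18 and 14 from AA and SS mice given RSD + minocycline. Hippocampus libraries came from the same groups, with 11 AA and 7 SS mice. By their labels, all groups, the controls included, are made up of mice with human globin genes, and there is no wild-type group.

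Iron is needed for respiration, myelin and neurotransmitter synthesis, and free ferrous iron damages cells, so uptake, storage and release are adjusted together. When iron is scarce, the iron regulatory proteins bind short hairpins in messenger RNAs, the iron-responsive elements. Bound near the start of the ferritin and ferroportin messages they stop translation, and bound in the tail of the transferrin receptor message they protect it from decay. Much of this control therefore changes protein without changing ferritin RNA, and RNA is all that was measured here. In the brain, oligodendrocytes make most of the transferrin, and endothelial cells bring iron in through the transferrin receptor.

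The hairpins are shown because they tie the storage, uptake and export genes to the same regulators. The untranslated regions (UTRs) of protein-coding transcripts in GRCm39 were searched on the transcript strand for a C, any 5 bases, CAGTG and any 6 bases, with 5 paired bases on each side of the loop, Watson-Crick or G-U. The motif was found in 4 of the 10 genes, and in 210 of 21082 genes with an annotated UTR (0.996%). Each site is printed 5′ to 3′ with the loop in capitals. A match is a description of the letters, not a test of binding. A stem with a bulge or an unpaired base is missed. A gene without a match, Slc11a2 included, may therefore still carry an element, and Tfrc may carry more than those printed.
Fth1, 5′ UTR, chr19:9960096-9960124, plus strand: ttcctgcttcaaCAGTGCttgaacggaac
Ftl1, 5′ UTR, chr7:45109203-45109231, minus strand: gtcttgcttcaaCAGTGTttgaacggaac
Slc40a1, 5′ UTR, chr1:45964625-45964653, minus strand: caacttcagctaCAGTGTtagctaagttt
Tfrc, 3′ UTR, chr16:32450037-32450065, plus strand: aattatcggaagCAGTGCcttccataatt
Tfrc, 3′ UTR, chr16:32450416-32450444, plus strand: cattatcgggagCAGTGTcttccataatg
Tfrc, 3′ UTR, chr16:32450481-32450509, plus strand: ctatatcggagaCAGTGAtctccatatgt
Tfrc, 3′ UTR, chr16:32450528-32450556, plus strand: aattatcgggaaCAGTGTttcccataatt
Of the 7 sites, 3 lie in a 5′ UTR of a storage or export gene and 4 in the 3′ UTR of Tfrc, each inside 1 exon.

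Several libraries stood apart and bear on what follows. The libraries held 16295042 to 107713193 reads on genes in cortex and 12869149 to 68731008 in hippocampus. In each tissue, the library of 1 SS + minocycline mouse and that of 1 AA + RSD + minocycline mouse held identical counts, and both were left out. Both libraries of AA + RSD mouse 9674 lay at the markers of the other tissue and were left out too. Libraries of mice 5844, 5853 and 7078 went against their genotype label in the level of Alas2, an erythroid gene, and those of AA mouse 9631 held more reads of the mouse globin gene Hbb-bs than any other library. All were kept. Levels are given in CPM, a gene's count scaled to the same total of reads on genes in every library. In the rest, summed hippocampus markers (5 genes) separated the tissues, at 34.3 to 164 CPM in cortex and 369 to 805 CPM in hippocampus. Cortex markers (5 genes) overlapped at the edges, at 237 to 674 CPM in cortex (median 536) and 106.5 to 367 CPM in hippocampus (median 135). The share of reads that fell outside annotated genes split the libraries into a low class (3.68% to 6.09% in cortex, 3.98% to 6.49% in hippocampus) and a high class (7.34% to 13.9% and 7.47% to 24.01%). The classes were uneven across groups. The low class held 5 of 6 SS + RSD cortex libraries and 6 of 6 in hippocampus, 2 of 8 and 2 of 7 SS libraries, and 5 of 14 and 4 of 14 SS + RSD + minocycline libraries. It also held 6 of 12 and 6 of 11 AA libraries, 2 of 2 AA + RSD libraries in each tissue, and 6 of 18 and 5 of 18 AA + RSD + minocycline libraries. The mice were also grouped here into number series A, B and C by the mouse numbers in their labels. The labels do not name these series or say what they stand for. The RSD mice without minocycline are all of series A while no RSD + minocycline mouse is.

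Fth1, the ferritin heavy chain, had the highest counted level of the set. Per kb of its main transcript, the median level of Fth1 was 1464 CPM per kb in cortex and 1876 CPM per kb in hippocampus. Ftl1 followed at 139 and 133 CPM per kb and Trf at 96.2 and 98.4. Tfrc stood at 25.8 and 22.2, Slc11a2 at 17.8 and 17.5, Ireb2 at 9.96 and 10.7, Ncoa4 at 8.93 and 9.36 and Aco1 at 7.12 and 7.30 CPM per kb. The oxidase Cp (3.62 and 3.86) and the exporter Slc40a1 (2.94 and 3.13) were lowest, and the order was the same in both tissues. The lowest library of Fth1 (969 CPM per kb in cortex, 1280 in hippocampus) lay above the highest of Ftl1 (363 and 306), and the lowest of Trf (50.1 and 50.8) above the highest of Tfrc (48.4 and 33.9). The other neighbours in this order had ranges that overlapped.

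The genes differed in how much they varied between mice. Aco1 was the steadiest, with a coefficient of variation of 7.62% over 65 cortex libraries and 5.65% over 63 hippocampus libraries. Cortex libraries spanned 22.1 to 38.0 CPM for Aco1, around a median of 32.6. Slc40a1 varied by 17.4% and 14.3%, Tfrc by 20.5% and 17.6%, Ncoa4 by 20.1% and 17.7%, and Fth1 by 29.4% and 29.3%. Ftl1 was the most variable, at 47.98% and 49.3%, and ranged from 31.9 to 352 CPM in cortex.

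**Figure D1:**
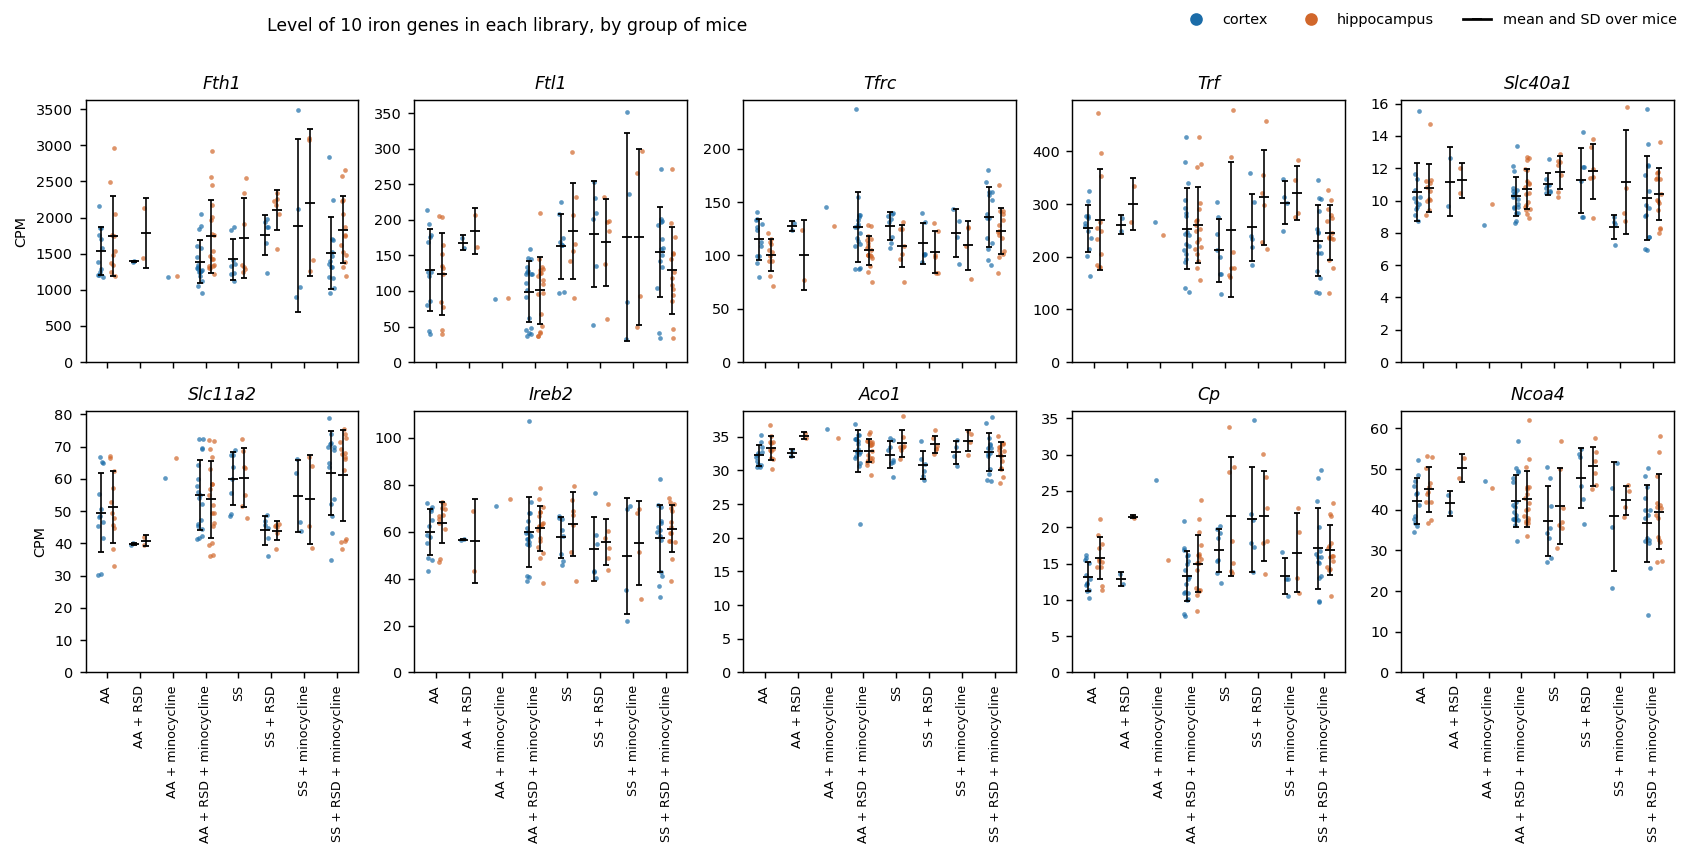
Level of the 10 iron genes (CPM, linear axes from 0) in each library, by group of mice along the horizontal axis, with cortex and hippocampus in different colours and bars at each group's mean and SD over mice. The groups of every gene lie over each other for the most part, Aco1 is tightest around 32.6 CPM in cortex, and Ftl1 spreads from 31.9 to 352 CPM.

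Over the 24 comparisons of groups within a tissue, 1 of 240 tests of these genes passed an adjusted p of 0.05 (edgeR quasi-likelihood test, Benjamini-Hochberg over all genes tested), and 19 passed an unadjusted p of 0.05. The passing test was that of Slc11a2 in hippocampus between SS + RSD + minocycline and SS + RSD mice. The other 23 comparisons gave 0 calls among the 10 genes.

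Between the tissues, hippocampus of a mouse tended to have less Tfrc and more Fth1 than its cortex. Tfrc was lower in hippocampus in 52 of 63 mice with both libraries, with a median log2 ratio of hippocampus over cortex of -0.18 (range -1.28 to 0.48). Fth1 was higher in hippocampus in 54 of 63 mice (median log2 ratio 0.25, range -1.10 to 1.34). Among the 58 mice whose libraries were of the same class in both tissues, the counts were 48 for Tfrc and 50 for Fth1. In AA mice, Tfrc measured 115 ± 19.2 CPM in cortex (SD, n = 12) and 101 ± 14.95 CPM in hippocampus (SD, n = 11), and the ranges, 80.3 to 141 and 71.3 to 121 CPM, overlapped.

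The unpaired comparison of AA mice called 0 of the 10 genes, against 37.1% of all genes tested. Its differences were -0.21 for Tfrc (log2, 95% interval -0.39 to -0.02, adjusted p = 0.0720) and 0.24 for Cp (0.04 to 0.45, adjusted p = 0.0613). With the mouse as a block, which compares the tissues within each animal, 3 of 10 genes were called against 53% of all genes. Tfrc fell by 0.25 in hippocampus on the log2 scale (SE 0.0543, adjusted p = 0.000914), Cp rose by 0.25 (SE 0.0922, adjusted p = 0.0317) and Fth1 rose by 0.18 (SE 0.0692, adjusted p = 0.0365). These shares are below the share of all genes called. Cp was higher in hippocampus in 7 of 11 AA mice, from a median of 12.6 CPM in 12 cortex libraries to 15.4 CPM in 11 hippocampus libraries. Marker sums moved between the tissues as well. Choroid plexus markers (6 genes) had a median of 16.4 CPM in AA cortex (9.45 to 38.4) and 156 CPM in AA hippocampus (32.8 to 4412), and meningeal markers (4 genes) had medians of 10.98 and 63.7 CPM. Their part in the Cp difference was not tested.

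Paired comparisons in the other groups gave Tfrc the same direction. In SS mice Tfrc fell by 0.24 (adjusted p = 0.0130) and Ncoa4 rose by 0.14 (adjusted p = 0.0457), 2 of 10 genes against 41.3% of all genes. In AA + RSD + minocycline mice Tfrc fell by 0.24 (adjusted p = 0.00995) and Fth1 rose by 0.31 (adjusted p = 0.000985), 2 of 10 against 53.4%. The same fit called 0 of 10 in SS + RSD mice (22.9% of all genes), SS + RSD + minocycline mice (30.8%) and SS + minocycline mice (13.5%). There the differences for Tfrc were -0.13 (95% interval -0.26 to -0.01), -0.11 (-0.30 to 0.07) and -0.17 (-0.56 to 0.22). Whether the tissue difference varies between groups was not tested.

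**Figure D2:**
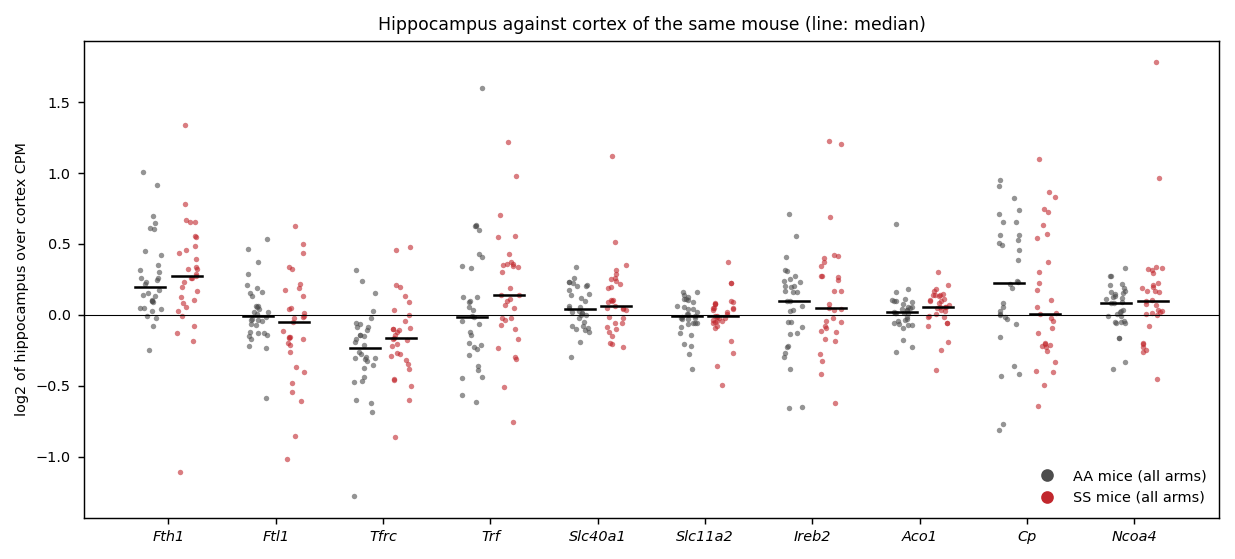
Log2 ratio of hippocampus over cortex CPM of the same mouse for each gene, 1 point per mouse (63 mice), AA and SS mice (all arms) in different colours, with a line at each genotype's median and 0 marking equal levels. Most Tfrc points lie below 0 (52 of 63 mice) and most Fth1 points above it (54 of 63), while the Slc11a2 points are centred near 0 (median -0.01).

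Sickle and AA mice without stress or drug did not differ past the threshold in any of the 10 genes, against 0.206% of all genes called in cortex and 0.158% in hippocampus. The intervals show what size was still possible. Fth1 in SS mice differed by -0.19 in cortex (95% interval -0.56 to 0.18) and by -0.05 in hippocampus (-0.49 to 0.38). The low class held 2 of 8 SS and 6 of 12 AA libraries in cortex, and 2 of 7 and 6 of 11 in hippocampus. Aco1 differed by -0.07 (-0.20 to 0.05) and 0.01 (-0.08 to 0.10), and Tfrc by 0.07 (-0.18 to 0.31) and 0.09 (-0.13 to 0.31). Trf in cortex was 212 ± 59.1 CPM in 8 SS mice and 254 ± 44.7 CPM in 12 AA mice, a difference of -0.33 (-0.69 to 0.03, adjusted p = 0.678). Oligodendrocyte markers (7 genes) moved with it, with a median sum of 4138 CPM (3533 to 6270.0) in SS and 5584 CPM (4257 to 6959) in AA cortex, and their part was not tested.

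Cp had the difference with the smallest unadjusted p between SS and AA mice. In hippocampus its level was 13.7 CPM at the lowest, 18.1 at the median and 33.8 at the highest of 7 SS mice, and 11.3, 15.4 and 21.2 CPM in 11 AA mice. The ranges overlapped. The log2 difference was 0.43 (95% interval 0.08 to 0.79), with an unadjusted p of 0.0179 and an adjusted p of 1.0. In cortex it was 0.28 (-0.06 to 0.62, adjusted p = 0.682), with 16.8 ± 2.97 CPM in 8 SS mice and 13.2 ± 2.0 CPM in 12 AA mice. Endothelial markers (5 genes) moved in the same direction, with a median sum of 254 CPM (224 to 342) in SS hippocampus and 194 CPM (184 to 241) in AA hippocampus. So did erythroid markers (7 genes), at 153 CPM (109 to 196) and 59.6 CPM (31.6 to 112). Choroid plexus markers (6 genes) went the other way, at 122.5 CPM (32.2 to 2412) in SS and 156 CPM (32.8 to 4412) in AA hippocampus. Oligodendrocyte markers (7 genes) did so too, at 3934 and 4926 CPM. The part of any of these lists in the Cp values was not tested. In bulk tissue more cells of a type cannot be told apart from more RNA per cell.

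The largest groups, 14 SS and 18 AA mice with RSD and minocycline, also gave 0 calls among the 10 genes (0.599% of all genes in cortex, 2.73% in hippocampus). Cp in cortex was 17.1 ± 5.64 CPM in the SS mice and 13.3 ± 3.48 CPM in the AA mice, a log2 difference of 0.32 (0.06 to 0.59, adjusted p = 0.405). Ncoa4, the ferritin receptor, differed by -0.25 in cortex (-0.48 to -0.01, adjusted p = 0.532). Tfrc in hippocampus was 123 ± 21.4 CPM in the SS mice and 105 ± 13.9 CPM in the AA mice, a log2 difference of 0.22 (0.06 to 0.38, adjusted p = 0.171). Between SS + RSD mice and the 2 AA + RSD mice, 0 of 10 genes were called in either tissue (0.0% and 0.0171% of all genes). Cp in cortex lay at 12.2 and 13.5 CPM in the AA + RSD mice and at 13.8 to 34.7 CPM in 6 SS + RSD mice, which did not overlap (log2 0.71, 0.07 to 1.35, adjusted p = 1.0).

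RSD in sickle mice moved none of the 10 genes past the threshold, while 2.57% of all genes were called in cortex and 3.11% in hippocampus. Slc11a2, the transporter of ferrous iron, had the lowest unadjusted p in both tissues. In hippocampus its level was 38.2, 45.3 and 46.1 CPM at the lowest, median and highest of 6 SS + RSD mice, and 47.9, 63.2 and 72.2 CPM in 7 SS mice. The groups did not overlap. The log2 difference was -0.35 (95% interval -0.62 to -0.08, adjusted p = 0.129). In cortex the values were 36.2, 45.3 and 48.8 CPM in SS + RSD mice and 48.5, 61.7 and 69.03 CPM in 8 SS mice, with a log2 difference of -0.32 (-0.59 to -0.05, adjusted p = 0.121). These ranges overlapped at their edges. With only the compared groups in the model, Slc11a2 was called in hippocampus, and Slc11a2 and Ncoa4 were called in cortex. The share of all genes called in that setting is not given here. The low class held 2 SS mice, whose Slc11a2 was 47.89 and 51.51 CPM in hippocampus and 48.48 and 49.13 CPM in cortex, beside 38.2 to 46.1 and 36.2 to 48.8 CPM in the low-class SS + RSD libraries.

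Ncoa4 went the other way. It measured 47.8 ± 7.29 CPM in 6 SS + RSD and 37.2 ± 8.57 CPM in 8 SS cortex libraries (log2 0.47, 0.05 to 0.90, adjusted p = 0.142). In hippocampus it measured 50.7 ± 4.84 and 40.9 ± 9.26 CPM (log2 0.40, 0.05 to 0.75, adjusted p = 0.180). Of these libraries, 5 of 6 SS + RSD but 2 of 8 SS were of the low class in cortex, and 6 of 6 and 2 of 7 in hippocampus. Among low-class libraries alone the difference of Ncoa4 was -0.00089 in cortex (48.2 and 49.1 CPM, adjusted p = 1.0) and -0.04 in hippocampus (50.7 and 53.4 CPM, adjusted p = 0.947). With the number series as a term it was -0.01 and -0.06. Fth1 differed by 0.42 in cortex (-0.09 to 0.92) and 0.39 in hippocampus (-0.13 to 0.90), and Trf by 0.38 and 0.39, with intervals that include 0. The oligodendrocyte marker sum was higher as well, with medians of 5530 CPM (3878 to 6688) in SS + RSD and 4138 CPM (3533 to 6270.0) in SS cortex, and of 6266 CPM (3888 to 8718) and 3934 CPM (3736 to 7119) in hippocampus. Its part in Trf was not tested. Ireb2 differed by 0.00 (-0.42 to 0.41) and -0.08 (-0.37 to 0.22). Over the 10 genes, the median difference was 0.20 in cortex and 0.09 in hippocampus, beside 0.08 and 0.06 over all genes.

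In AA mice the question rests on 2 RSD mice, both of the low class in each tissue. Slc11a2 lay at 39.6 and 40.1 CPM in their cortex and at 39.6 and 42.1 CPM in their hippocampus, within the ranges of AA mice, 30.3 to 66.7 and 33.1 to 67 CPM. Its difference was -0.30 in cortex (95% interval -0.74 to 0.14) and -0.34 in hippocampus (-0.79 to 0.10). Cp in hippocampus lay at 21.3 and 21.6 CPM in these mice, just above the highest of 11 AA mice (21.2 CPM), a difference of 0.43 (-0.06 to 0.92, adjusted p = 0.899). None of the 10 genes was called (0.0% of all genes in cortex, 0.0419% in hippocampus). The test of whether RSD acted differently in SS and AA mice called 0 of the 10 as well (0.0% and 0.0128% of all genes), and its interval for Slc11a2 ran from -0.55 to 0.42 in cortex and from -0.55 to 0.46 in hippocampus.

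Minocycline in stressed sickle mice was the comparison with the called gene. Slc11a2 in hippocampus was 38.1, 67.2 and 75.6 CPM at the lowest, median and highest of 14 SS + RSD + minocycline mice and, as above, 38.2, 45.3 and 46.1 CPM in 6 SS + RSD mice. The treated mice (61.1 ± 14.1 CPM) spread across the untreated ones (43.9 ± 2.99 CPM) and beyond them. The log2 difference was 0.39 (SE 0.118, 95% interval 0.15 to 0.63, adjusted p = 0.0466), a 1.31-fold higher level. It was 1 of 10 genes, against 5.96% of all genes in hippocampus. In cortex the levels were 34.8, 66.8 and 78.7 CPM against 36.2, 45.3 and 48.8 CPM, and the log2 difference was 0.36 (0.11 to 0.61, adjusted p = 0.0560), so 0 of 10 genes were called against 8.85% of all genes. This comparison and that of RSD with SS mice share the SS + RSD libraries. SS + RSD + minocycline mice compared with SS mice differed in Slc11a2 by 0.04 in cortex (-0.18 to 0.26) and 0.04 in hippocampus (-0.18 to 0.27).

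The hippocampal call was close to the threshold. It was lost with another normalization (RLE size factors, adjusted p = 0.0525), with no filter on low counts (0.0791), with only the 2 groups in the model (0.0503) and without the libraries of mice 5844, 5853, 7078 and 9631 (0.0628). With each of the 20 mice left out in turn it held in 6 cases and was lost in 14 (adjusted p 0.0213 to 0.0997, log2 0.34 to 0.42). DESeq2 called it (adjusted p = 0.0234), together with Aco1 and Ncoa4, with the share of all genes called by DESeq2 not given here.

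Slc11a2 had a higher median in the high class of reads outside annotated genes in each group with libraries of both classes, except SS + RSD cortex, where the 1 high-class library (44.8 CPM) lay among the 5 low-class ones (36.2 to 48.8 CPM). Across all groups its median was 44.3 CPM (30.3 to 54.9) in 27 low-class cortex libraries and 64.5 CPM (44.8 to 78.7) in 38 high-class ones. In hippocampus the medians were 43.2 CPM (33.1 to 52.9, n = 27) and 66.2 CPM (36.2 to 75.6, n = 36). Within the treated SS + RSD mice, 4 low-class hippocampus libraries lay at 38.1 to 41.5 CPM and 10 high-class ones at 62.9 to 75.6 CPM. The 6 SS + RSD libraries, all of the low class, lay at 38.2 to 46.1 CPM. Among low-class libraries alone the difference turned to -0.11 in hippocampus (adjusted p = 0.534) and was 0.02 in cortex (adjusted p = 0.992). With the share as a term it was 0.18 in hippocampus (adjusted p = 0.763) and 0.08 in cortex (0.800). With the number series as a term it was 0.10 and 0.08. The compared groups share no series, so series and treatment cannot be told apart. Endothelial markers (5 genes) summed to a median of 224 CPM (160 to 264) in treated and 278 CPM (269 to 328) in untreated hippocampus, and microglial markers (5 genes) to 241 CPM (203 to 338) and 300.4 CPM (257 to 411), and their part was not tested.

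**Figure D3:**
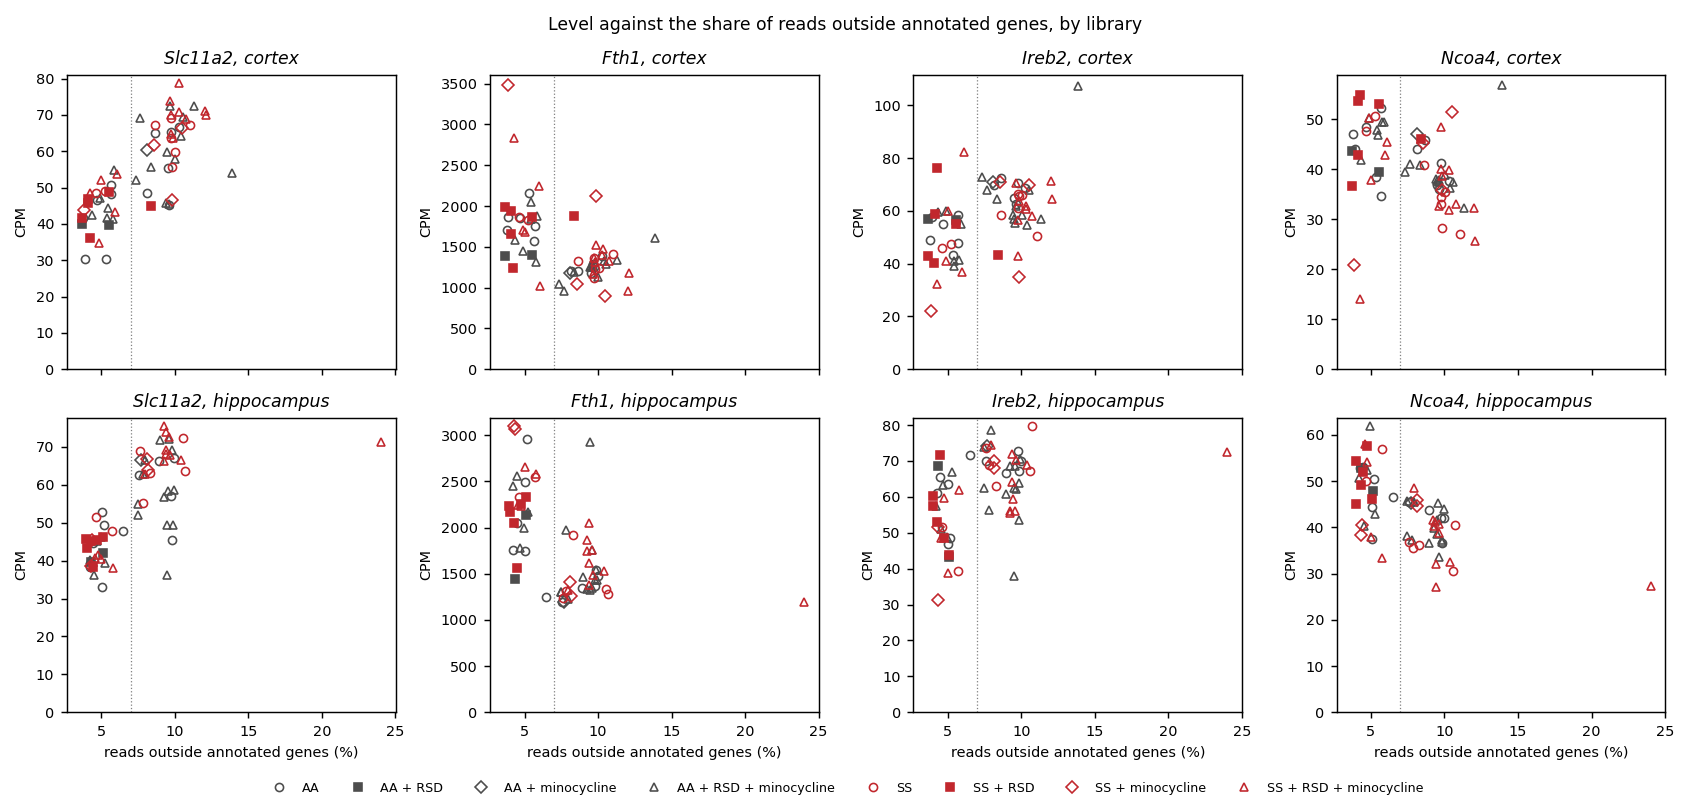
Level (CPM, linear axes from 0) of Slc11a2, Fth1, Ireb2 and Ncoa4 against the percent of reads outside annotated genes, 1 mark per library, coloured by genotype and shaped by treatment, for each tissue, with a dotted line at 7%. In cortex Slc11a2 reaches 54.9 CPM left of the line and starts at 44.8 CPM right of it, and Fth1 has a higher median on the left (1824 against 1256 CPM).

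Other genes of the set followed the classes as well. The cortex median of Fth1 was 1824 CPM in the low class and 1256 CPM in the high class, and 2233 and 1398 CPM in hippocampus. Ncoa4 stood at 46.9 and 37.7 CPM in cortex and 50.02 and 40.1 CPM in hippocampus, and Ireb2 at 48.9 and 64.1 CPM and at 52.98 and 68.3 CPM. Aco1 hardly moved, at 31.9 and 33.1 CPM in cortex and 33.3 and 33.5 CPM in hippocampus. These are descriptions without a test.

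The remaining genes in the minocycline comparison of stressed sickle mice did not pass the threshold. Ncoa4 differed by -0.50 in cortex (-0.88 to -0.12, adjusted p = 0.0823) and by -0.41 in hippocampus (-0.71 to -0.11, adjusted p = 0.0801). Cp differed by -0.42 (-0.81 to -0.03, adjusted p = 0.157) and -0.40 (-0.81 to 0.00, adjusted p = 0.189). Aco1 differed by -0.14 in hippocampus (-0.25 to -0.03, adjusted p = 0.0940), from 33.9 ± 1.30 CPM in 6 mice to 32.1 ± 2.04 CPM in 14. Fth1 differed by -0.33 and -0.24, Trf by -0.27 and -0.40 and Slc40a1 by -0.26 and -0.24, all with intervals that include 0. Ireb2 differed by 0.00 (-0.37 to 0.38) in cortex and 0.07 (-0.19 to 0.33) in hippocampus. The median over the 10 genes was -0.27 in cortex and -0.24 in hippocampus, beside -0.05 and -0.03 over all genes. Among low-class libraries the difference of Ncoa4 was -0.38 in cortex (adjusted p = 0.912) and -0.13 in hippocampus (0.743). With the number series as a term, Ncoa4 turned to 0.19 in cortex (adjusted p = 1.0) and 0.27 in hippocampus (0.683), and Cp to 0.10 (1.0) and 0.19 (0.852).

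**Figure D4:**
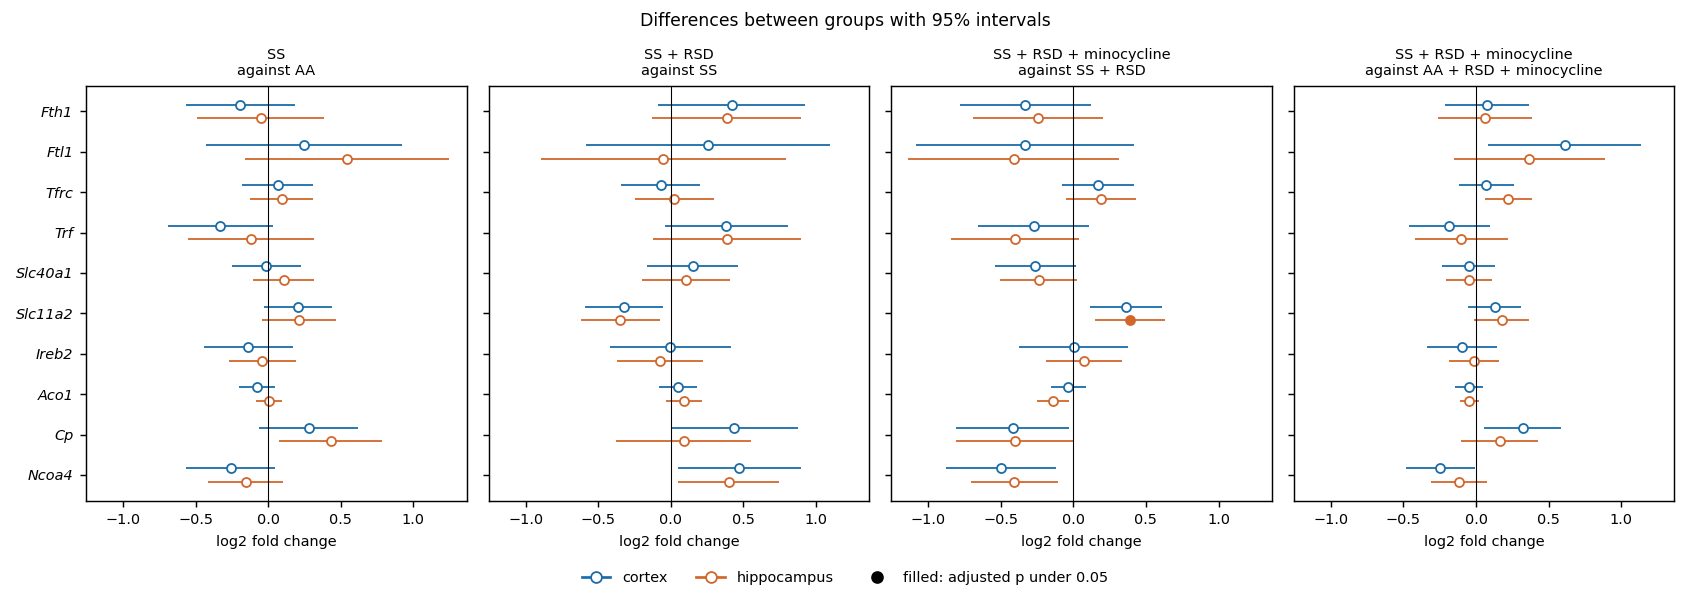
Log2 fold changes of the 10 genes with 95% intervals in 4 comparisons, a panel each, with a colour per tissue, filled marks for an adjusted p under 0.05 and 0 as no difference. Slc11a2 lies at 0.36 in cortex and 0.39 in hippocampus for SS + RSD + minocycline against SS + RSD mice, and the widest intervals are those of Ftl1.

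Minocycline without stress was given to 4 sickle mice. Slc40a1 in their cortex was 7.25, 8.54, 8.65 and 9.00 CPM, against 10.5 to 12.6 CPM in 8 SS mice, which did not overlap, with a log2 difference of -0.32 (95% interval -0.68 to 0.04, adjusted p = 0.743). In hippocampus Slc40a1 was 8.76, 9.25, 10.8 and 15.8 CPM, on both sides of the range of 7 SS mice (10.2 to 12.9 CPM). Fth1 in cortex was 900.5, 1039, 2119 and 3483 CPM in these 4 mice, with both lower values in mice of number series C and both higher ones in mice of series B, against 1117 to 1869 CPM in the 8 SS mice. Trf in cortex was 303 ± 40.6 CPM against 212 ± 59.1 CPM in SS mice (log2 0.58, 0.10 to 1.06, adjusted p = 0.666). The oligodendrocyte marker sum in cortex was 5708 CPM at the median (4416 to 6736) with the drug and 4138 CPM (3533 to 6270.0) without it, and its part was not tested. None of the 10 genes was called (0.0% of all genes in either tissue). In number series B alone, with 2 treated mice, 5 of 10 were called in each tissue (Ftl1, Ireb2, Trf, Slc11a2 and Fth1). The share of all genes called in that subset is not given here. The SS mice of series B were all of the high class in both tissues. Treated mouse 9889 was of the low class in both tissues and treated mouse 9888 in hippocampus, so class and drug cannot be told apart there. Stressed AA mice with minocycline differed from the 2 AA + RSD mice in Slc11a2 by 0.42 in cortex (-0.01 to 0.85, adjusted p = 0.392) and 0.41 in hippocampus (-0.02 to 0.85, adjusted p = 0.696), with 0 calls among the 10 (0.0% and 0.0419%). Both AA + RSD mice were of the low class in each tissue, against 6 of 18 cortex and 5 of 18 hippocampus libraries with minocycline. These groups share no series, so series, class and treatment cannot be told apart. Compared with AA mice, the differences of AA + RSD + minocycline mice ran from -0.44 for Ftl1 to 0.12 for Slc11a2 in cortex, again with 0 calls (0.0503% of all genes in cortex, 0.0% in hippocampus).

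Ftl1, the light chain of ferritin, varied along a line that crossed the groups. Its count cannot be read without that of Ftl2 (ENSMUSG00000082062.2), a processed pseudogene on chromosome 4 (125398081 to 125398632, GRCm39). Of the 885 windows of 85 bases, the read length, in the main Ftl1 transcript (ENSMUSG00000050708.17, chromosome 7, 45107367 to 45109308), 82.3% also occur in the transcripts of other genes, and 25.1% occur in Ftl2. The counting left out reads with several mapping places. The windows were matched on either strand and to transcripts at the same place as well, whose reads can map to a single place. The 82.3% is therefore not the share of Ftl1 sequence left out of its count.

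The Ftl2 share of the Ftl1 and Ftl2 counts fell into 3 separate ranges. In cortex the share was 0% to 0.217% in 39 mice, 1.05% to 4.202% in 14 and 9.03% to 17.8% in 12. In hippocampus the ranges were 0% to 0.365%, 2.08% to 4.22% and 5.50% to 14.9%. All 63 mice with both libraries fell into the same range in both. The level of Ftl1 followed these ranges, which are built from the same counts, and the values are given as a description. In cortex it was 121 to 352 CPM (median 168) in the lowest range of the share, 80.5 to 197 CPM (median 99.96) in the middle one and 31.9 to 61.5 CPM (median 40.9) in the highest. In hippocampus the medians were 159, 94.3 and 43.5 CPM. The sum of Ftl1 and Ftl2 differed too, with cortex medians of 168, 103 and 47.5 CPM.

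**Figure D5:**
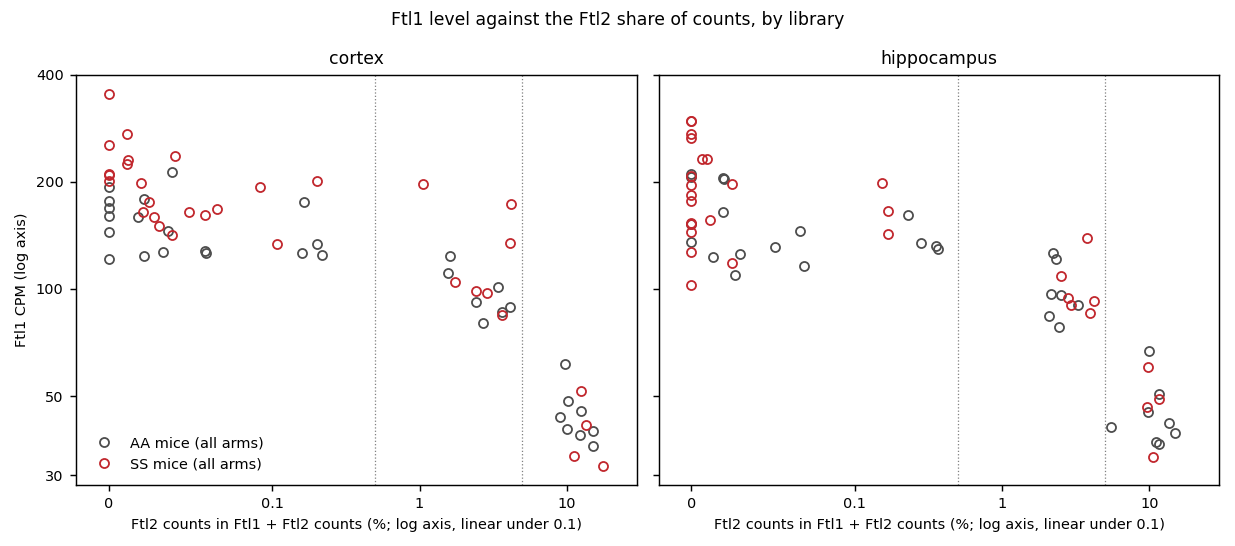
Ftl1 level (CPM, log axis) against the Ftl2 share of Ftl1 and Ftl2 counts (percent, log axis that is linear under 0.1), 1 point per library, with AA and SS mice (all arms) in different colours and dotted lines at 0.5% and 5%, for each tissue. The points form 3 clusters, at cortex medians of 168, 99.96 and 40.9 CPM of Ftl1 from the lowest share to the highest.

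The ranges were unevenly spread over the groups. The highest range held 2 of 12 AA, 0 of 2 AA + RSD, 0 of 1 AA + minocycline and 6 of 18 AA + RSD + minocycline mice. Of the sickle mice it held 0 of 8 SS, 1 of 6 SS + RSD, 1 of 4 SS + minocycline and 2 of 14 SS + RSD + minocycline mice. Without the range, Ftl1 was higher in SS + RSD + minocycline than in AA + RSD + minocycline cortex by a log2 difference of 0.61 (95% interval 0.08 to 1.14, adjusted p = 0.445), at 154 ± 63.3 and 99.2 ± 42.4 CPM. With the range as a term it was 0.23 (unadjusted p = 0.0882). In hippocampus the values were 0.37 and 0.00. Between SS and AA mice the difference was 0.24 in cortex and 0.54 in hippocampus without the term and 0.08 and 0.30 with it. The range is cut from a share that holds the Ftl1 count itself, so part of any shrinkage with the term is built in. These values therefore cannot show how much of a difference goes with the range. The lowest range in cortex had Ftl1 medians of 148 CPM in 22 high-class and 201 CPM in 17 low-class libraries, and the values below are not split by class. Within the lowest range, cortex medians of Ftl1 were 172 CPM in 8 AA mice (121 to 214), 172 CPM in 6 SS mice (164 to 225), 220 CPM in 4 SS + RSD mice (201 to 254) and 161 CPM in 9 SS + RSD + minocycline mice (134 to 272). The 8 AA + RSD + minocycline mice (123 to 159, median 131) lay below the SS and the SS + RSD mice without overlap, and the 2 SS + minocycline mice (237 and 352) lay above the AA and the SS mice. In hippocampus, the AA + RSD + minocycline mice (109.6 to 209.9 CPM) overlapped the SS (143 to 296) and the SS + RSD mice (184 to 232), and the 2 SS + minocycline mice (266 and 297) lay above the AA mice (123 to 205) and within reach of the SS mice.

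Other members also share sequence or position with further genes. Of the 85-base windows of Ncoa4, 45.6% occur in other transcripts, and of those of Fth1, 32.8%. Exons on the opposite strand overlap 41.5% of the exonic bases of Fth1 (ENSMUSG00000024661.8, chromosome 19, 9957911 to 9962462) and 26.5% of those of Ftl1. The libraries were made with a directional kit, which keeps the strand, but whether the counting used the strand was not given in the sources used here, so those reads cannot be assigned with certainty. Tfrc, Ireb2 and Aco1 have no shared window and no overlap.

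Likeness between genes was read as Pearson's r of log2 CPM over the libraries of a tissue (65 in cortex, 63 in hippocampus), which share depth, tissue piece and class of reads. Trf ran with genes of myelin. Its likest gene was Cnp in both tissues (r = 0.87 and 0.92), followed by Ndrg1 (0.85) and Mag (0.83) in cortex and by Gjb1 (0.88) and Mbp (0.88) in hippocampus. Cp ran with Mrc1, a receptor of macrophages (0.87 and 0.87). Slc11a2 was likest to Zfp641 in both (0.85 and 0.91), which lies 2.09 Mb from it on chromosome 15. Ftl1 was likest to Gm45441 in cortex (0.83) and Sult2b1 in hippocampus (0.89), both on chromosome 7 at 0.371 and 0.27 Mb.

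Fth1 was likest to Psmc5, Prdx5 and Cox6a1 in cortex (each 0.92) and to Rpl28, Cox6a1 and Sh3bgrl3 in hippocampus (0.95, 0.94 and 0.94). Ireb2 was likest to Zfp654 in cortex (0.96) and to Agfg1 in hippocampus (0.95). Fth1 and Ireb2 ran opposite to each other (r = -0.79 in cortex, -0.81 in hippocampus), and so did Fth1 and Tfrc (-0.59 and -0.52). The 3 likest genes of Tfrc in cortex were Gpcpd1, Slf1 and Zfp654 (0.86, 0.86 and 0.85). The likest genes of Slc40a1 (Itga6 and Itm2a, each 0.66) and Aco1 (Smarcal1 0.77, Ganab 0.71) were less alike. Several of these genes differed in level between the classes of reads outside genes, and the values are over both classes together.

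Of 30 other iron genes, chosen as a list, 24 to 27 could be tested. Between the tissues of AA mice, 6 were higher and 3 lower in hippocampus out of 25 tested in the unpaired fit, near the 37.1% of all genes called there. With the mouse as a block, 8 were higher and 3 lower, with Heph and Tfr2 gained, against 53% of all genes. Tmprss6 (log2 1.85, adjusted p = 7.75e-05), a protease that restrains hepcidin, and Cybrd1 (1.82, 7.34e-13), a ferric reductase, were higher, and Meltf (-0.84, 4.37e-05), melanotransferrin, was lower in the unpaired fit. Hepcidin itself, Hamp, had a median of 0.0 CPM in both tissues. In stressed sickle mice, Tfr2, an iron-sensing relative of the transferrin receptor, was lower than in SS mice, with medians of 5.67 and 11.6 CPM in cortex (log2 -0.82, adjusted p = 0.0472) and 7.28 and 14.4 CPM in hippocampus (-0.81, adjusted p = 0.0430). It was the 1 gene of 26 and of 25 called there, near the 2.57% and 3.11% of all genes.

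With minocycline added to stress in sickle mice, 3 of 26 of these genes rose in cortex and 0 fell, beside 8.85% of all genes called in either direction. They were Tfr2 (log2 0.86, adjusted p = 0.0133), the haem exporter Flvcr1 (0.62, adjusted p = 0.0497) and Slc25a28 (0.46, adjusted p = 0.0194), which carries iron into mitochondria. In hippocampus 2 of 25 rose, Tfr2 (0.68, adjusted p = 0.0347) and Slc25a28 (0.43, adjusted p = 0.0352), and 2 fell, beside 5.96% of all genes. Heph, a multicopper oxidase like Cp, fell by 0.72 (adjusted p = 0.0212), with 5.52, 6.77 and 10.3 CPM at the lowest, median and highest of 14 mice and 9.77, 10.96 and 14.02 CPM in 6 SS + RSD mice. Bmp6, an inducer of hepcidin, fell by 1.01 (adjusted p = 0.0383). None of these calls remained with the share of reads outside genes as a term, where adjusted p was 0.287 to 0.882. Tfr2 was no longer called with that term in the comparison of SS + RSD with SS mice either (0.887 and 0.410).

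Lcn2, the siderophore-binding lipocalin, was higher in SS than in AA mice with RSD and minocycline. Its medians were 0.368 CPM (0.0586 to 5.17) in 14 SS and 0.0452 CPM (0.0 to 1.03) in 18 AA cortex libraries, a log2 difference of 3.15 (SE 0.572, adjusted p = 0.000564). In hippocampus the medians were 0.627 and 0.119 CPM and the difference was 2.03 (SE 0.539, adjusted p = 0.0215). The ranges overlapped in both tissues, and levels this near 0 rest on few reads per library, so the size of the fold is uncertain. Among low-class libraries alone Lcn2 was not called (log2 2.89, adjusted p = 0.629 in cortex, and 1.44, adjusted p = 0.9998 in hippocampus). Bmp6 was lower in SS hippocampus by a log2 difference of -0.78 (adjusted p = 0.0418). In hippocampus that was 1 higher and 1 lower of 26 tested (2.73% of all genes called), and in cortex 1 higher of 27 (0.599%).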

How the data were processed

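Poly(A) RNA of cortex and hippocampus was sequenced as single reads of 85 bases. The authors aligned the reads with STAR to GRCm39 and deposited raw counts of reads per GENCODE gene, with no normalization. The library kit was directional. The STAR version, the GENCODE release and the strand setting of the counting are not given in the sources used here. Reads that map to several places are not in the gene counts. The 4 summary lines of each table name no gene and were kept out of library sizes; medians of 8.39% and 7.69% of reads fell outside genes in cortex and hippocampus, 4.96% and 4.80% mapped to several places and 12.5% and 13.4% were unmapped. Reads on genes numbered 33848502 and 36523234 at the median, which leaves counting error small beside the spread between mice, and p-values measure that spread only. Of 134 libraries with a known group, 128 from 65 mice entered the fits, and 3 columns of the tables were not used.

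Groups were compared with edgeR 4.0.16 in R 4.3.3 (quasi-likelihood test, TMM, genes with a count of at least 10 in enough libraries and 15 in all, Benjamini-Hochberg over all genes tested, threshold 0.05). Comparisons within a genotype used all groups of that genotype, and those between genotypes and the interactions used all groups. CPM were computed from the counts and the total of reads on genes in each library. The 2 tissues of a mouse come from the same animal, and their deviations from the group means correlated with r = 0.582 to 0.826 (median 0.701) in 11 AA mice over 14517 genes, so the mouse was used as a block in a paired fit. In groups other than AA the tissues were compared only in that paired fit. Alternatives were DESeq2 1.42.0, RLE size factors, no filter, terms for the number series and for the share of reads outside genes, subsets of libraries, and the compared groups alone. The range of the Ftl2 share as a term, the low or high class alone and each mouse left out were chosen after seeing the data. On simulated data with 200 changed genes, edgeR called 53% of genes changed 1.5-fold and 89% of those changed 2-fold for SS + RSD + minocycline against SS + RSD (14 and 6 mice, 18382 genes). It also called 12 unchanged genes. The simulation held only these groups, without read classes or number series, and its changed genes were drawn from those of higher mean count. These rates therefore need not hold for the real fits.

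The 10 genes and the lists of other iron genes and cell type markers were chosen with earlier results of these data known. All 10 are reported, the other iron genes named are among the 3 largest called changes in each direction, and the genes most like a member are the 3 of highest r among genes whose mean log2 CPM reached 1 (prior count 2). Some genes of this kind are not reported here. Coordinates, UTRs and sequences came from a GENCODE annotation and genome of GRCm39, in which 54749 of 55416 gene identifiers were found. Tables and figures were made with Python 3.11.15, pandas 2.3.3, numpy 2.4.6, scipy 1.17.1 and matplotlib 3.10.9.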

Additional observations from a re-analysis of the deposited data

Results flagged for a closer look

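In groups of 4 to 10 mice, 3 of 60 gene and group pairs held a library set apart from the others by Dixon's test, a number that chance alone gives, since about 1 in 20 groups is marked. Slc40a1 in the cortex of SS mouse 9848 was 12.57 CPM, above the 10.49 to 11.31 CPM of the other 7. Fth1 in the hippocampus of SS + RSD mouse 9621 was 1565 CPM, below the 2050 to 2333 CPM of the other 5. Slc11a2 in the same library was 38.18 CPM, below the 43.23 to 46.13 CPM of the others. Without mouse 9621, the hippocampal difference of Slc11a2 between SS + RSD + minocycline and SS + RSD mice was 0.34 on the log2 scale (adjusted p = 0.0997, edgeR).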

How the results depend on the processing

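Of 338 alternative counts of called genes, 294 stayed within 1.5 times the reported count and 44 did not. The reported count was 0 in 23 of the 24 comparisons within a tissue, and such a count can stay only by being 0 again. The 294 is therefore no measure of how firm a call is. The share of all genes called under each alternative is not set beside these counts. For the named genes that were called in a comparison or its paired fit, 179 of 311 alternatives kept direction and side of the threshold, 120 lost the call, 9 gained one and 3 reversed. Between the tissues of AA mice, 0 of 10 genes were called, against 3 with the mouse as a replicate block (Cp, Tfrc and Fth1), 2 once the number series was a term, and 1 each with DESeq2, with the share of reads outside genes as a term, in number series B alone and without mice 5844, 5853, 7078 and 9631. For SS + RSD against SS mice, 0 became 2 in cortex and 1 in hippocampus with only the compared groups in the model. For SS + RSD + minocycline against SS + RSD mice in cortex, 0 became 1 (Slc11a2) with RLE size factors, with DESeq2 and with the Ftl2 range as a term, and the count was 0 to 1 with each mouse left out, 1 without any of 7076, 9895, 5875, 5801, 9890, 5391 or 5400. In hippocampus, 1 became 3 with DESeq2 and 0 with RLE size factors, with no filter, with either term for series or share, without the 4 mice above, with only the compared groups and in low-class libraries alone, and was 0 to 2 with each mouse left out. For SS + minocycline against SS mice, 0 became 5 in each tissue in number series B alone, which left 2 treated mice. Both were of the low class in hippocampus, beside SS mice of the high class. Among the called genes, the reversed values were -0.16 for Flvcr1 in cortex (adjusted p = 1.0) and 0.14 for Bmp6 in hippocampus (0.937) once the number series entered the model, and -0.11 for Slc11a2 in hippocampus (0.534) in low-class libraries. Of genes not called, Ncoa4 and Cp also changed sign with the number series as a term (values given with the comparison). The causes were not tested. Series or classes alone gave no value where a group then held fewer than 2 mice. No fit across conditions could use a block, since each mouse belongs to 1 group.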
